A study of Mus musculus with 6 samples.

Results

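Monocytes expressing Ly6c2 and related genes were taken from single-cell transcriptomes of the adult mouse cortical surface and of the tissue that lines the inside of the skull. A barcode was first kept when it had at least 500 detected genes and at most 10% of its unique molecular identifiers (UMIs, 1 per captured mRNA molecule) on mitochondrial genes. A kept barcode counted as a monocyte when it had at least 2 UMIs of Lyz2 (lysozyme 2), at least 1 UMI in 3 or more of 6 selecting genes (Ly6c2, Chil3, Plac8, Ccr2, Ms4a6c and Ms4a4c), and no UMI of C1qa, Cd209a, Retnlg, Cd3e and Cd79a. These last 5 genes mark macrophages, a class of dendritic cells, neutrophils, T cells and B cells. The rule selected 243 of 8804 kept barcodes. The 12 genes of the rule chose the cells, so their levels are a description and were not tested.

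Monocytes are made in the bone marrow, the marrow of the skull included, and leave it in a step that depends on the chemokine receptor CCR2. In the mouse, classical monocytes carry high Ly6C on their surface and are recruited to inflamed tissue, where they can give rise to macrophages and dendritic cells. Part of them turn into non-classical, Ly6C-low monocytes that patrol the lumen of blood vessels and depend on the transcription factor NR4A1.

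Untreated adult mice labelled C57BL6 gave 6 droplet libraries (10x Genomics, 3' chemistry), 4 of cortical surface-associated tissue (cells released by washing enzyme over the dorsal cortex) and 2 of bone-associated tissue (meningeal tissue taken off the inner side of the skull). Each library pooled tissue of several mice, and DRAQ5-positive, propidium iodide-negative cells were sorted. For the dissociation the sample labels describe papain and ventricular-subventricular tissue, whereas the study's methods describe collagenase D and dispase II. The mice were not perfused, so monocytes of the blood and of the tissue cannot be told apart, and the library is the replicate in each test below.

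The libraries stood apart in 3 ways before any comparison of monocytes. Cortical surface libraries 1 and 2 held 3 and 8 monocytes, against 35 and 67 in cortical surface libraries 3 and 4 and 26 and 104 in bone-associated libraries 1 and 2. Hemoglobin genes took 84.6% and 71.9% of all UMIs in cortical surface libraries 3 and 4, and at most 0.52% in the other 4. In the kept barcodes of the same 2 libraries the Y-linked genes Ddx3y, Eif2s3y, Kdm5d and Uty had 610 and 1234 UMIs, whereas cortical surface libraries 1 and 2 had 2 and 1 and bone-associated libraries 1 and 2 had 1 and 3. Xist, which is transcribed from the inactive X chromosome, had UMIs in all 6 libraries. The study's methods state that every sample held equal numbers of mice of each sex, and the counts of Y-linked genes went against this in 4 libraries. No cell barcode was shared between monocytes of different libraries, and 11 were shared among all kept barcodes.

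The first question was how common monocytes were in each preparation. They made up 0.404% of kept barcodes in cortical surface library 1 (3 of 743, exact Clopper-Pearson 95% interval 0.0833 to 1.18%) and 0.639% in library 2 (8 of 1252, interval 0.276 to 1.26%). The share was 3.17% in cortical surface library 3 (35 of 1103, interval 2.22 to 4.39%) and 2.99% in library 4 (67 of 2241, interval 2.32 to 3.78%). In bone-associated libraries 1 and 2 it was 2.70% (26 of 963, interval 1.77 to 3.93%) and 4.16% (104 of 2502, interval 3.41 to 5.01%). The cortical surface libraries therefore fell into a low and a high pair, and the high pair lay within the range of the bone-associated libraries. These intervals cover counting error only.

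The mean share was 1.8 ± 1.48% (SD, n = 4) on the cortical surface and 3.43 ± 1.03% (SD, n = 2) in bone-associated tissue. The groups overlapped at a difference of 1.63 percentage points. Ranked among all assignments of the libraries to the groups, this difference gave p = 0.4 (exact permutation test, two-sided), where 0.133 is the smallest p this design allows. Relative to kept barcodes with at least 2 UMIs of Lyz2, monocytes made up 1.14, 2.08, 8.14 and 8.98% in cortical surface libraries 1 to 4, and 24.5 and 24.3% in the bone-associated libraries. With that denominator the groups did not overlap, at the smallest p the design allows. Lyz2 is itself a term of the rule, and this denominator can hold barcodes with C1qa, which the rule bars from the monocytes. The share therefore also depends on how many macrophages a library held. Border macrophages, which have C1qa, numbered 79, 76, 137 and 166 in cortical surface libraries 1 to 4 and 9 and 38 in bone-associated libraries 1 and 2. The groups also did not overlap relative to barcodes with a UMI of Ptprc, the leukocyte antigen CD45 (difference 3.76 percentage points), and with at most 5% mitochondrial UMIs (4.08 percentage points), where the exact permutation p was again 0.133. A share of a sorted suspension also moves with the number of other cells recovered, which was not tested.

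**Figure D1:**
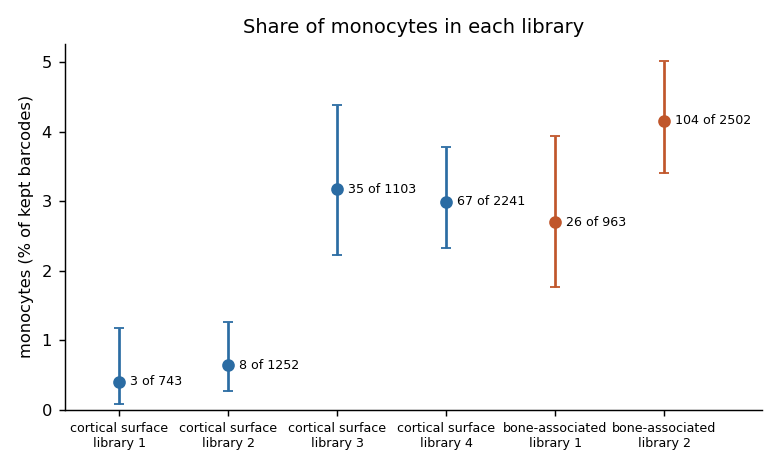
Share of kept barcodes that were monocytes (vertical axis, %) in each of the 6 libraries (horizontal axis), cortical surface in blue and bone-associated in orange. Bars are exact 95% binomial intervals and the labels give the counts, and cortical surface libraries 1 and 2, at 0.404 and 0.639%, sit below the other 4, which lie between 2.70 and 4.16%.

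Monocytes had a median of 10776 UMIs in cortical surface library 3, 11163 in library 4, 14339 in bone-associated library 1 and 12709.5 in bone-associated library 2, with 2528, 2755, 3197.5 and 2866 genes. Bone-associated monocytes were thus somewhat more deeply sampled. Summed over monocytes, these libraries held 387968, 869505, 538580 and 1456538 UMIs.

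The selecting genes were first checked against the name of the cells. Ly6c2 itself, a GPI-anchored surface protein of classical monocytes (ENSMUSG00000022584, chromosome 15, mm10), had a UMI in 171 of the 243 cells (70.4%). It was found in 0 of 3 and 3 of 8 monocytes of cortical surface libraries 1 and 2, in 62.9 and 71.6% of those of libraries 3 and 4, and in 73.1 and 76.0% of those of bone-associated libraries 1 and 2. In CPM (the UMIs of a gene scaled to a common total over the monocytes of a library), Ly6c2 stood at 1067 and 1447 in cortical surface libraries 3 and 4 and at 2326 and 1633 in bone-associated libraries 1 and 2, against 29.0 to 153 in all other kept barcodes of the 6 libraries. Reads of Ly6c2 can be hard to place, because Ly6c1 on the same chromosome is a near-identical copy.

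Plac8, a small cysteine-rich protein, was the most widely detected selecting gene, in 94.3 to 100% of monocytes of each library. Ms4a6c, a membrane-spanning protein, followed with 91.4 to 100%. Chil3, a secreted chitinase-like protein, was found in 40.0 and 59.7% of monocytes of cortical surface libraries 3 and 4 and in 61.5 and 58.7% of those of the bone-associated libraries. Ccr2, the receptor for CCL2 and CCL7, was found in 80.0 and 77.6% against 73.1 and 74.0%. Ms4a4c was found in 80.0 and 91.0% against 65.4 and 89.4%. Lyz2 was far more abundant than any of them, at 23438 and 26353 CPM in cortical surface libraries 3 and 4 and 13376 and 27105 CPM in bone-associated libraries 1 and 2. Plac8 stood at 2302 and 2306 CPM against 3327 and 3291 CPM.

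The rule asks for 3 of the 6 selecting genes, and cells at that limit differed from those with more. Of the 243 monocytes, 62 had exactly 3 selecting genes, 31 had 4, 50 had 5 and 100 had all 6. Just outside the limit, 41 barcodes met the other terms with 2 selecting genes, and just inside it there were 62. Fn1, F13a1, Vcan and Thbs1, which mark classical monocytes and took no part in the rule, were used as a set. At least 2 of them were detected in 6.45% of cells with 3 selecting genes, 22.6% with 4, 74.0% with 5 and 93.0% with 6. Treml4, Ace, Spn and Cd300e, which mark non-classical monocytes, ran the other way, with at least 2 detected in 59.7, 58.1, 26.0 and 22% of those cells.

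Cells with 3 selecting genes had a median of 9306.5 UMIs and those with 6 a median of 12651.5. When each cell was thinned to 1500 UMIs for the sets, with the selecting genes still counted at full depth, the classical set was detected in 1.61, 12.9, 40.0 and 60% and the non-classical set in 41.9, 22.6, 2.00 and 1.00%. Over all members, 141 cells (58.0%) had the classical set, 90 (37.0%) the non-classical set, 29 both and 41 neither. Lymphocytes of the same libraries, selected by Cd3e or Cd79a, rarely had the classical set (1 of 761 on the cortical surface and 5 of 854 in bone-associated tissue). Ly6c2 itself, which is one of the 6 selecting genes, was detected in 21% of cells with 3 selecting genes and 32.3% of those with 4, so most of these cells had no UMI of the gene that names them.

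**Figure D2:**
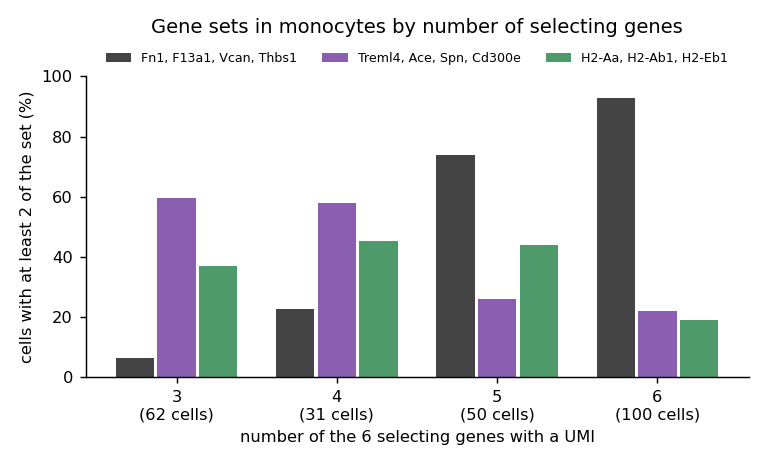
Percent of monocytes with at least 2 genes of a set detected (vertical axis) by the number of the 6 selecting genes with a UMI (horizontal axis, all 6 libraries together). The classical set (dark grey) climbed from 6.45 to 93.0% as the non-classical set (purple) went from 59.7 to 22%, and at least 2 of the class II genes H2-Aa, H2-Ab1 and H2-Eb1 (green) were found in 19.0 to 45.2%.

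The 11 monocytes of cortical surface libraries 1 and 2 belonged mostly to the Ly6c2-negative part. Only 1 of the 11 had a UMI of Fn1 or F13a1, and 6 had the non-classical set (2 of 3 and 4 of 8). At least 2 of the dendritic cell genes Flt3, Xcr1, Clec9a and Zbtb46 were found in 1 of 3 and 3 of 8 of them. Their summed level of 12 class II and costimulation genes was 22775 and 33725 CPM, against 8640 and 7960 CPM in cortical surface libraries 3 and 4 and 7570 and 17973 CPM in the bone-associated libraries. The cells of these 2 libraries therefore went against the name, and they did not enter the main gene test.

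Both kinds of monocyte were present in both preparations. The classical set was found in 51.4 and 61.2% of monocytes of cortical surface libraries 3 and 4 and in 65.4 and 61.5% of those of bone-associated libraries 1 and 2. The non-classical set was found in 37.1 and 34.3% against 38.5 and 36.5%. After thinning to 1500 UMIs the classical set was found in 31.4 and 38.8% against 34.6 and 34.6%, and the non-classical set in 25.7 and 11.9% against 7.69 and 12.5%. The order of the groups for the non-classical set changed with thinning, and no difference is read from it.

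Smaller groups of cells carried genes of the marrow. At least 2 of Mpo, Elane, Prtn3, Ctsg and Ms4a3, the primary granule genes of marrow progenitors, were detected in 0 and 11.9% of monocytes of cortical surface libraries 3 and 4 and in 19.2 and 3.85% of those of bone-associated libraries 1 and 2. At least 2 of Camp, Ngp, Ltf and Ly6g, the secondary granule genes of maturing neutrophils, were detected in 5.71 and 7.46% against 3.85 and 1.92%. Cells with at least 2 of 5 cell cycle genes (Mki67, Top2a, Birc5, Cdk1, Ccna2) made up 5.71 and 13.4% against 26.9 and 4.81%, and after thinning 0 and 1.49% against 7.69 and 0.962%. The groups overlapped for the primary granule and cell cycle sets. Dendritic cell genes (at least 2 of Flt3, Xcr1, Clec9a and Zbtb46) were detected in 5.71 and 4.48% against 3.85 and 8.65%.

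The second question was which genes differed between monocytes of the 2 preparations. UMIs were summed over the monocytes of each library, and libraries with at least 10 entered, so that cortical surface libraries 3 and 4 (102 cells) were compared with bone-associated libraries 1 and 2. A gene was called at a Benjamini-Hochberg adjusted p under 0.05 in edgeR's quasi-likelihood test and a log2 fold change of at least 1.3 in either direction. Fold changes are coded as cortical surface minus bone-associated, and levels are in CPM after TMM scaling. Of 7481 genes tested, 187 (2.5%) were called, 153 of them (2.05% of genes tested) higher in bone-associated and 34 (0.454%) higher in cortical surface monocytes. The median log2 fold change of all tested genes was -0.03. In summed counts, fewer cells with a transcript and less of it per cell cannot be told apart.

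Without bone-associated library 2 no gene was called in edgeR. The 186 called genes that could still be tested kept their sign. That carries no weight, because all 187 called genes had no overlap between the libraries of the groups, so that leaving out 1 library could hardly turn a sign. The log2 fold change without bone-associated library 2 was -3.97 for Cd14, -4.57 for Thbs1, -4.74 for Nr4a2 and 2.37 for Cx3cr1, but it shrank to -1.34 for Il1b and -1.66 for Ccl2. Without cortical surface library 3 the number was 96, and without bone-associated library 1 it was 98. DESeq2 called 141. Cortical surface libraries 3 and 4 held cells with Y-linked UMIs and the bone-associated libraries almost none. Restricted to cells with a UMI of Xist and none of the 4 Y-linked genes (10, 29, 23 and 100 cells), 118 genes were called, 95 of them higher in bone-associated monocytes, and 103 of the 118 were among the 187. In that fit the log2 fold change was -4.61 for Cd14, -4.04 for Thbs1, -5.19 for Nr4a2 and -5.11 for Vegfa.

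Thrombospondin 1 and the lipopolysaccharide co-receptor CD14 showed the clearest separation among genes of classical monocytes. Thbs1 (ENSMUSG00000040152, chromosome 2) stood at 25.5 and 95.6 CPM in cortical surface libraries 3 and 4 and at 1765 and 2043 CPM in bone-associated libraries 1 and 2. Its log2 fold change was -4.84 ± 0.45 (SE, adjusted p = 0.000975). Both cortical surface libraries were low, and UMIs of Thbs1 were found in 5 of 35 and 15 of 67 monocytes there, against 17 of 26 and 72 of 104. Cd14 (ENSMUSG00000051439, chromosome 18) stood at 39.7 and 64.5 CPM against 936 and 1536 CPM. Its log2 fold change was -4.51 ± 0.36 (SE, adjusted p = 0.000764), and it was found in 8 and 17 cortical surface monocytes against 21 and 86 bone-associated ones. In cortical surface libraries 1 and 2, Thbs1 had no UMI and Cd14 had 0 and 9 UMIs, of 35565 and 143396 UMIs in all. Both genes were also lower on the cortical surface in Cd209a dendritic cells (log2 fold change -9.18 for Thbs1 and -3.75 for Cd14). In neutrophils the values were -2.71 and -3.83. The preparation differences of Thbs1 and Cd14 in monocytes were not called against those in either of these classes.

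Of the other 17 classical genes outside the rule that were tested, Clec4e and Ccr1 were also higher in bone-associated monocytes. Clec4e, a receptor for mycobacterial glycolipid and for damaged cells, stood at 36.9 and 25.6 CPM against 164 and 273 CPM (log2 fold change -2.88 ± 0.37, adjusted p = 0.00429). Ccr1, a receptor of CCL3 and CCL5, stood at 31.2 and 27.8 CPM against 82.0 and 154 CPM. In all, 4 of 19 genes of the list were called, all 4 in the same direction, while the median of the list was 0.25. Its most abundant genes outside the calls were Ifitm3 (3735 and 3023 CPM against 2734 and 4639 CPM) and S100a6 (2271 and 2278 CPM against 1396 and 1909 CPM).

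Among 19 non-classical genes tested, 1 was called. Cx3cr1, the fractalkine receptor, stood at 395 and 281 CPM on the cortical surface and at 68.4 and 123 CPM in bone-associated monocytes. Its log2 fold change was 1.77 ± 0.33 (SE, adjusted p = 0.0196). The groups did not overlap, and 46.3% of all tested genes had no overlap. The median of the list was 0.27, with 13 of the 19 above 0, and Gngt2 (715 and 430 CPM against 304 and 635 CPM) and Nr4a1 (505 and 349 CPM against 453 and 573 CPM) were its most abundant members.

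**Figure D3:**
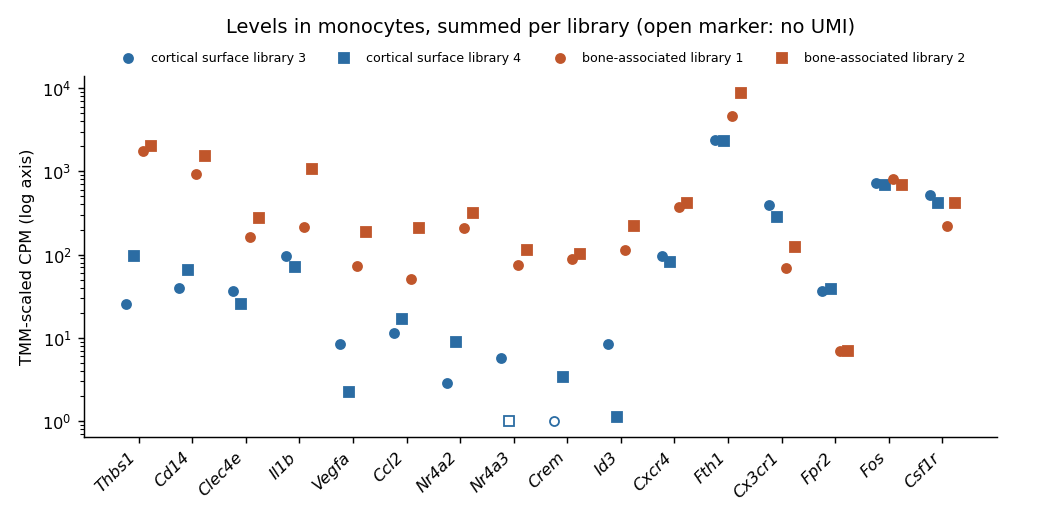
Levels of 16 genes (TMM-scaled CPM, log axis) summed over the monocytes of cortical surface libraries 3 and 4 (blue) and bone-associated libraries 1 and 2 (orange), with an open marker at 1 CPM for a library without a UMI. Thbs1 and Cd14 reached 1765 and 936 CPM or more in both bone-associated libraries and at most 95.6 CPM in the cortical surface ones, Cx3cr1 and Fpr2 had the opposite order, and Fos and Csf1r were not called.

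Genes of inflammatory signalling were higher in bone-associated monocytes where they passed the test. Of 15 cytokines, chemokines and related mediators tested, 5 were called, all higher in bone-associated monocytes, and the median of the list was -1.27. Vegfa, an angiogenic growth factor, stood at 8.51 and 2.22 CPM against 73.5 and 186 CPM (log2 fold change -4.95 ± 0.68, adjusted p = 0.00512). Il1b, the secreted interleukin 1 beta, stood at 96.5 and 70.0 CPM against 217 and 1060 CPM (log2 fold change -2.98 ± 0.61, adjusted p = 0.0328). Bone-associated library 2 was far above library 1 for both, and 175 of its UMIs of Il1b lay in 1 cell. In Cd209a dendritic cells of the same libraries the log2 fold change was -6.60 for Vegfa and -5.51 for Il1b. In neutrophils it was -4.43 and -1.72. For Il1b the preparation difference in monocytes minus that in the dendritic cells was 2.75 and was called (adjusted p = 0.00131).

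Ccl2, a ligand of CCR2, stood at 11.4 and 16.7 CPM against 51.3 and 210 CPM, and Cxcl16 at 8.51 and 14.4 CPM against 37.6 and 72.9 CPM. Ccl2 was detected in 10 of 26 and 30 of 104 bone-associated monocytes. Ptgs2, the inducible cyclooxygenase, had 0 and 1 UMI in cortical surface libraries 3 and 4 and 220 and 72 UMIs in bone-associated libraries 1 and 2. The counted ratio was 182, with a 95% counting interval of 32.4 to 7203, and 67.9% of its UMIs lay in 1 cell of bone-associated library 1. The abundant chemokines Ccl6 (820 and 490 CPM against 543 and 951 CPM) and Ccl9 (346 and 379 CPM against 302 and 663 CPM) were not called. In the cells restricted by Xist, Ccl2 and Il1b missed the threshold (adjusted p = 0.0562 and 0.0600) with log2 fold changes of -3.14 and -2.61, whereas Vegfa, Ptgs2, Thbs1, Cd14 and Clec4e passed it.

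Receptors that sense microbes and damage divided. Of 28 pattern recognition and Fc receptors tested, 4 were higher in bone-associated monocytes (Cd14, Clec4e, Tlr2 and Clec4d), 1 was higher on the cortical surface (Fpr2), and the median was 0.01. Tlr2, the receptor of bacterial lipopeptides, stood at 31.2 and 38.9 CPM against 156 and 205 CPM. Clec4d, which pairs with Clec4e, stood at 17.0 and 7.78 CPM against 73.5 and 112 CPM. Fpr2, a formyl peptide receptor, stood at 36.9 and 38.9 CPM against 6.84 and 7.01 CPM (log2 fold change 2.43 ± 0.46, adjusted p = 0.0226). It was found in 3 and 13 cortical surface monocytes and in 3 and 5 bone-associated ones. Fcer1g, the shared signalling chain of Fc receptors, was the most abundant member at 2222 and 2020 CPM against 1208 and 2198 CPM.

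Chemokine receptors and adhesion molecules also moved in both directions, with 2 of 20 called each way and a median of 0.27. Cxcr4, which holds cells in the marrow through CXCL12, stood at 96.5 and 82.2 CPM against 378 and 420 CPM (log2 fold change -2.17 ± 0.26, adjusted p = 0.00263). Cd177, a surface protein of neutrophils, stood at 142 and 160 CPM against 51.3 and 64.5 CPM and was, with Cx3cr1, higher on the cortical surface. Cd44 (366 and 301 CPM against 472 and 605 CPM) and Itgb2 (485 and 369 CPM against 284 and 292 CPM) were the most abundant members of the list and were not called.

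Among 12 class II and costimulation genes tested, the costimulatory ligands Cd86 and Cd80 were called and the class II genes were not. Cd86 stood at 31.2 and 35.6 CPM against 116 and 155 CPM (log2 fold change -2.01 ± 0.33, adjusted p = 0.0119). Cd80 stood at 5.68 and 3.33 CPM against 23.9 and 46.3 CPM. The invariant chain Cd74 stood at 3880 and 2819 CPM against 2471 and 7283 CPM and H2-Aa at 1255 and 1015 CPM against 1089 and 2864 CPM, so that the groups overlapped for both. The list's median was -0.76.

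Of 23 myeloid transcription factors tested, Id3, an inhibitor of helix-loop-helix factors, and Hif1a, the oxygen-regulated subunit of hypoxia-inducible factor 1, were higher in bone-associated monocytes. Id3 stood at 8.51 and 1.11 CPM against 114 and 220 CPM (log2 fold change -5.61 ± 0.65, adjusted p = 0.00252), and was found in 3 and 1 cortical surface against 9 and 50 bone-associated monocytes. Hif1a stood at 39.7 and 41.1 CPM against 125 and 118 CPM. The abundant factors Cebpb (1589 and 1221 CPM against 2275 and 3746 CPM) and Zeb2 (718 and 532 CPM against 564 and 520 CPM) were not called. The list's median was -0.28.

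Of 19 macrophage maturation genes tested, the lysosomal protease gene Ctsl (14.2 and 34.5 CPM against 94.0 and 140 CPM) and the tetraspanin Cd63 (36.9 and 45.6 CPM against 212 and 98.1 CPM) were called, both higher in bone-associated monocytes, with a median of -0.19. Apoe (4734 and 2360 CPM against 1130 and 2843 CPM) and Lgals3 (1323 and 1653 CPM against 1051 and 1906 CPM) overlapped. Of 21 cytokine and growth factor receptors tested, 1 was called. Il1r2, a decoy receptor for interleukin 1, stood at 5.68 and 7.78 CPM against 54.7 and 80.6 CPM, while Csf1r, the receptor that monocytes need to survive, stood at 514 and 422 CPM against 219 and 421 CPM and Ifngr1 at 474 and 340 CPM against 378 and 472 CPM. The median of the receptors was 0.08.

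Of 16 glycolysis and hypoxia genes tested, 3 were higher in bone-associated monocytes (Hilpda, Hif1a and Pfkp), with a median of -0.42. Hilpda, a lipid droplet protein induced by hypoxia, stood at 5.68 and 2.22 CPM against 30.8 and 33.6 CPM, and Pfkp, a phosphofructokinase, at 36.9 and 47.8 CPM against 128 and 117 CPM. Gapdh (633 and 962 CPM against 1102 and 880 CPM) and Pkm (383 and 407 CPM against 432 and 454 CPM) were not called. Of 13 iron and heme handling genes tested, Fth1, the ferritin heavy chain, and Txnrd1, thioredoxin reductase, were higher in bone-associated monocytes, with a median of -0.41. Fth1 stood at 2376 and 2313 CPM against 4614 and 8784 CPM (log2 fold change -1.52 ± 0.30, adjusted p = 0.0255). Txnrd1 stood at 39.7 and 36.7 CPM against 113 and 110 CPM, and Ftl1, the light chain, was not called (3991 and 3567 CPM against 2886 and 5268 CPM).

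No call was made among 33 interferon-induced genes (median -0.11), 20 cell cycle genes (median -0.80) and 7 marrow progenitor and primary granule genes (median -1.13). Ifi27l2a, the most abundant interferon-induced gene, stood at 3011 and 1597 CPM against 1588 and 2978 CPM, and Bst2 at 182 and 162 CPM against 267 and 362 CPM. For the cell cycle list, H2afz stood at 1056 and 1495 CPM against 1858 and 1580 CPM and Hmgb2 at 832 and 1715 CPM against 1208 and 579 CPM. Prtn3, proteinase 3 of primary granules, stood at 17.0 and 393 CPM against 3524 and 297 CPM, with the high value in bone-associated library 1 alone, and Elane was left out by the filter on detection. Over the 16 lists of biological functions and 13 lists of other cell types together, 48 different genes were called.

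**Figure D4:**
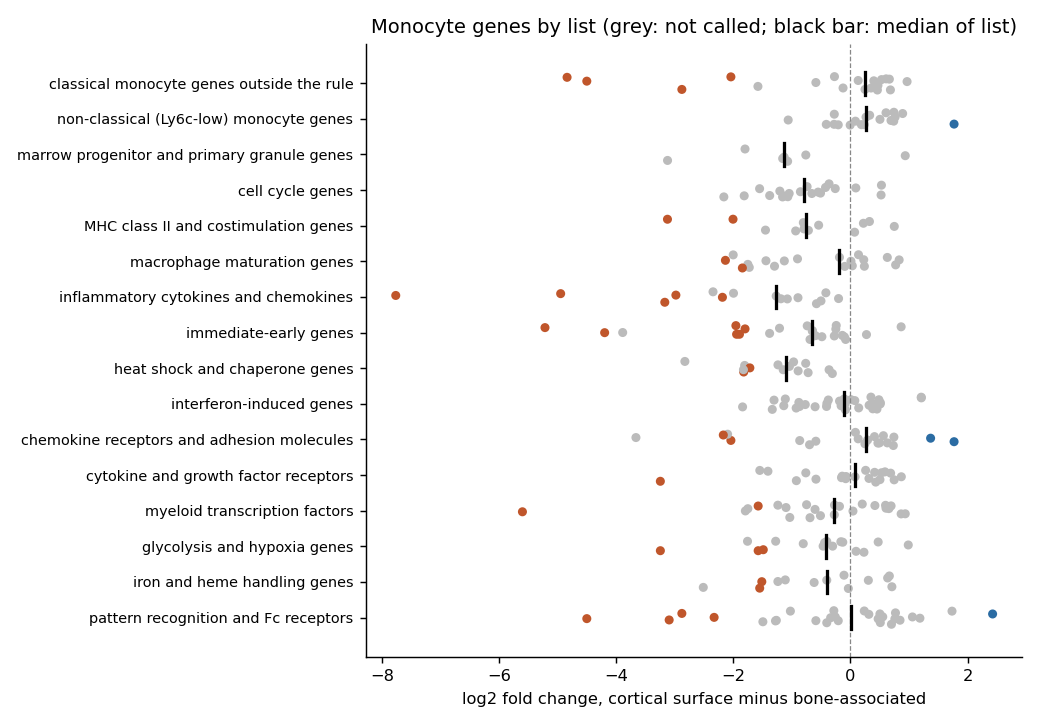
Log2 fold change of each tested gene (horizontal axis, cortical surface minus bone-associated) in 16 lists (vertical axis), with called genes higher in bone-associated monocytes in orange, called genes higher on the cortical surface in blue, genes not called in grey and the median of each list as a black bar. Immediate-early genes (6) and cytokines and chemokines (5) hold the most orange points of any list, and the medians run from -1.27 to 0.27.

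Immediate-early genes, which are transcribed within minutes of a stimulus, and heat shock genes were described together, since both are also known to respond to tissue dissociation. Of 23 immediate-early genes tested, 6 were called, all higher in bone-associated monocytes (Nr4a2, Jund, Ier3, Fosl2, Fosb and Egr1), and the median was -0.65. Nr4a2, an orphan nuclear receptor, stood at 2.84 and 8.89 CPM against 208 and 320 CPM (log2 fold change -5.22 ± 0.45, adjusted p = 0.000764), and was found in 1 of 35 and 7 of 67 monocytes against 16 of 26 and 81 of 104. Its relative Nr4a3 had 2 and 0 UMIs against 44 and 160 UMIs, a counted ratio of 63.5 with a counting interval of 17.4 to 528. Crem, a transcriptional regulator of the cyclic AMP pathway, had 0 and 3 UMIs against 52 and 143 UMIs, a ratio of 40.5 with a counting interval of 13.6 to 198.

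The low levels did not hold in every cortical surface library. In the 8 monocytes of cortical surface library 2, Nr4a2 had 31 UMIs, Jund 210, Fosb 54, Cd86 23 and Cxcl16 11. Before TMM scaling this library stood at 1464 CPM for Jund, 377 CPM for Fosb, 160 CPM for Cd86 and 76.7 CPM for Cxcl16, each above both bone-associated libraries. With all 6 libraries in the fit, the log2 fold change of Nr4a2 was -2.59 and it missed the threshold (adjusted p = 0.186), as did Il1b (-1.98, adjusted p = 0.194), whereas Thbs1 (-5.42), Cd14 (-4.65), Id3 (-5.46), Nr4a3 (-3.57) and Cxcr4 (-1.72) passed it. In that fit 23 of the 58 named called genes were no longer called, Jund, Fosb, Cd86, Cd80, Cxcl16, Dnaja1, Pfkp, Fth1, Fpr2 and the 4 globins among them.

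Nr4a2 and Nr4a3 were among the 12 called genes of 50 or more UMIs with the largest change toward bone-associated monocytes, and the sequence before their start sites is shown because both hold several copies of a short cyclic AMP response motif. The motif searched was TGACG on either strand (CGTCA in the printed strand), and the letters were chosen after the values were seen. It was found in 3 of the 7 genes among those 12 that had a RefSeq promoter entry (Nr4a2, Nr4a3 and Id3), and in 17.8% of 32851 promoter windows of the same 250 bases. Below, each window runs 5′ to 3′ on the strand of the gene to the RefSeq start (GRCm38.p6), with matches in capitals. Each window holds 4 matches.

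Nr4a2, chr2:57124004-57124253, minus strand: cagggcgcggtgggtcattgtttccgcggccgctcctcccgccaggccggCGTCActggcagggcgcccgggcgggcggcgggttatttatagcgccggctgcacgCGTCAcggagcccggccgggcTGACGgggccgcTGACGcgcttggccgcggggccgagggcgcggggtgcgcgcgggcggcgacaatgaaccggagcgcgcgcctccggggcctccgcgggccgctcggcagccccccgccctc

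Nr4a3, chr4:48045055-48045304, plus strand: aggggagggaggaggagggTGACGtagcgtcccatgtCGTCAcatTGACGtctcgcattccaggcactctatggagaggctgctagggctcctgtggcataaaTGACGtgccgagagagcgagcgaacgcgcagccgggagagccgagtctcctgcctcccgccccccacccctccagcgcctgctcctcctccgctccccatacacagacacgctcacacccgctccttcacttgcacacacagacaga

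A match is a description of the letters and not evidence of binding.

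Jund, a subunit of the AP-1 factor, stood at 324 and 270 CPM against 1054 and 1223 CPM (log2 fold change -1.95 ± 0.24, adjusted p = 0.00306). Ier3 stood at 11.4 and 10.0 CPM against 114 and 268 CPM, Fosl2 at 105 and 81.1 CPM against 316 and 322 CPM, and Fosb at 73.8 and 33.3 CPM against 157 and 227 CPM. Fos and Junb, the most abundant genes of the list, were not called, at 715 and 683 CPM against 812 and 693 CPM for Fos and 766 and 668 CPM against 689 and 1554 CPM for Junb. Of 14 heat shock and chaperone genes tested, Dnaja1 (173 and 190 CPM against 694 and 510 CPM) and Hsp90aa1 (255 and 279 CPM against 1285 and 620 CPM) were higher in bone-associated monocytes, and all 14 had a negative fold change with a median of -1.10. Hspa8 (1419 and 1524 CPM against 2078 and 2782 CPM) and Hsp90ab1 (1144 and 1127 CPM against 2410 and 1455 CPM) were not called.

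Lymphocytes of the same libraries (248, 437, 293 and 561 cells) gave a measure of how far such genes differed between the preparations in another cell type. In lymphocytes the log2 fold change was -5.94 for Nr4a2, -6.09 for Nr4a3, -3.90 for Crem and -1.43 for Hsp90aa1, each in the same direction as in monocytes. The preparation difference in monocytes minus that in lymphocytes was then tested with the library as a block, and 17 of 7875 genes (0.216%) were called. Of these, 12 were positive, and 6 of the 12 were immediate-early genes: Nr4a1, Klf4, Fos, Jun, Fosl2 and Dusp1.

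Fos stood at 28.8 and 32.0 CPM in lymphocytes of cortical surface libraries 3 and 4 and at 381 and 472 CPM in those of bone-associated libraries 1 and 2. These levels, and those given for the comparisons with other myeloid classes, are in CPM before TMM scaling. In monocytes Fos stood at 650 and 707 CPM against 882 and 678 CPM on that scale. The difference between the 2 fold changes was 3.33 ± 0.31 (SE, log2, adjusted p = 0.0066). For Jun the difference was 2.63 ± 0.27 (adjusted p = 0.0066), with lymphocytes at 57.5 and 61.5 CPM against 396 and 389 CPM. Klf4 gave 3.81 ± 0.38 and Nr4a1 4.53 ± 0.41 (adjusted p = 0.0066 for each). Thus Fos, Jun, Klf4 and Nr4a1 were lower in cortical surface than in bone-associated lymphocytes and differed less, or not detectably, between monocytes. Nr4a2 differed by 0.68 ± 0.56 between monocytes and lymphocytes and was not called. Against Cd209a dendritic cells of the same libraries Nr4a2 differed by -2.53 and was called (adjusted p = 0.0197). A fit that leaves out 1 library has a single library for 1 tissue and assumes that this library varies like the others. Fos and Nr4a1 were called in each fit that left out 1 library, and Jun and Klf4 were called in all of these except the one without cortical surface library 4.

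**Figure D5:**
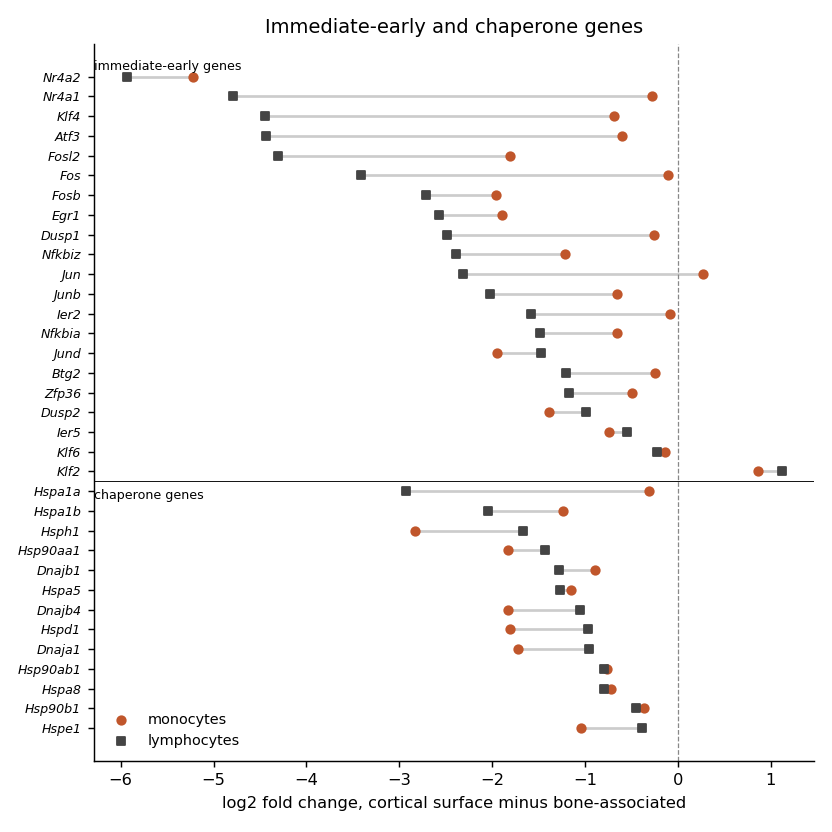
Log2 fold change between the preparations (horizontal axis, cortical surface minus bone-associated) of immediate-early genes and chaperone genes (vertical axis) in monocytes (orange circles) and in lymphocytes of the same libraries (dark grey squares), each from the fit of its own cell type, for genes tested in both. Nr4a2 lay far below 0 in both cell types, whereas Nr4a1, Klf4 and Fos stood at -4.79, -4.45 and -3.41 in lymphocytes and at -0.28, -0.69 and -0.10 in monocytes.

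The same test was made against 3 other myeloid classes of the same libraries. Against neutrophils 31 of 7702 genes (0.402%) were called, against Cd209a dendritic cells 44 of 8229 (0.535%), and against border macrophages 190 of 8419 (2.26%). The last comparison had only bone-associated library 2 for that tissue, since library 1 held 9 border macrophages. A single library has no spread of its own, so that this test assumes that it varies like the others, and its values are given as a description. Cd14 stood at 451 and 748 CPM against 2765 CPM in border macrophages and at 36.1 and 66.7 CPM against 1504 CPM in monocytes. Against neutrophils and Cd209a dendritic cells, where both bone-associated libraries entered, Cd14 differed by -0.62 and -0.58 and was not called.

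Relative to Cd209a dendritic cells, Ier3 (-2.88 ± 0.50, adjusted p = 0.00558) and Egr1 (-3.04 ± 0.55, adjusted p = 0.00749) were shifted toward bone-associated tissue in monocytes. Egr1 stood at 33.5 and 42.6 CPM against 228 and 89.3 CPM in monocytes and at 122 and 152 CPM against 33.9 and 78.0 CPM in the dendritic cells. Without cortical surface library 3 or without library 4 neither gene was called, with the sign kept. Tnfaip2, induced by tumor necrosis factor, went the other way (4.25 ± 0.51, adjusted p = 0.000181), with the dendritic cells at 0 and 10.3 CPM on the cortical surface against 212 and 145 CPM and monocytes at 116 and 164 CPM against 212 and 152 CPM. Relative to neutrophils, Ptgs2 was shifted by -4.63 ± 0.90 (adjusted p = 0.000183). In neutrophils it stood at 71.6 and 199 CPM against 793 and 959 CPM. It was not called without cortical surface library 4 or without bone-associated library 1, with the sign kept.

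Of the called genes that reached 50 UMIs where they were higher, those with the largest differences were not monocyte genes. In the direction of the cortical surface these were Hbb-bs, Hba-a1, Hbb-bt and Hba-a2, the adult globins, followed by Bpgm, the red cell enzyme that makes bisphosphoglycerate. Hbb-bs stood at 76216 and 14212 CPM against 8.54 and 42.8 CPM. In monocytes of cortical surface libraries 3 and 4, 13.1 and 2.93% of UMIs were globin UMIs, against at most 0.00954% of those of bone-associated ones. In lymphocytes of cortical surface libraries 3 and 4 they took 24.7 and 15.8%. Over 50% of UMIs were hemoglobin UMIs in 4 monocytes of cortical surface library 3 and in 1 of library 4. The Y-linked genes Ddx3y and Eif2s3y, under the limit of 50 UMIs and named after their values were seen, were also called. Each had 29 UMIs on the cortical surface and none in bone-associated monocytes, at least 15.4- and 13.7-fold higher. The 2 copies of each globin are near-identical, so reads can be placed on either. With the globins left out before scaling, 190 genes were called.

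In the direction of bone-associated tissue the largest changes included contractile and matrix genes of vessels and connective tissue. Tagln, Mgp, Tpm2 and Myl9 had no UMI in cortical surface monocytes of libraries 3 and 4, and with a floor of 3 counts for the pair of libraries were at least 70.0-, 53.7-, 28.8- and 20.4-fold higher in bone-associated monocytes. These bounds pool bone-associated libraries 1 and 2, where Tagln stood at 53.0 and 283 CPM and Mgp at 181 and 76.4 CPM. Tpm2 stood at 34.2 and 104 CPM and Myl9 at 25.6 and 72.2 CPM. The 8 monocytes of cortical surface library 2 held 2, 1, 3 and 4 UMIs of Tagln, Mgp, Tpm2 and Myl9. For Myl9 this level (27.9 CPM before TMM scaling) was close to that of bone-associated library 1 (25.6 CPM after it). With all 6 libraries in the fit the log2 fold changes of the same genes were -6.68, -7.10, -4.86 and -3.96, and each was called. With at most 5% mitochondrial UMIs, Tagln, Mgp and Tpm2 missed the threshold at fitted log2 fold changes, which are no bounds, of -5.96, -6.93 and -6.25 (adjusted p = 0.0732, 0.0832 and 0.0517). Acta2 missed it at a log2 fold change of -1.65 in place of -5.16 (adjusted p = 0.347). Tagln, Mgp, Tpm2 and Myl9 were found in 1 to 6 monocytes of bone-associated library 1 and in 12 to 33 of library 2. Over all 6 libraries, a single cell carried 46.3% of the UMIs of Tagln and 48.1% of those of Mgp. For Tpm2 and Acta2 the share was 52.6 and 54.4%. In bone-associated library 1, 1 cell held 27 of 31 UMIs of Tagln, 104 of 106 of Mgp and 15 of 15 of Myl9. For Tpm2 it was 12 of 20 and for Acta2 46 of 50. The levels of Tagln, Mgp and Myl9 in that library, which enter the bounds, thus rest largely on 1 cell for each gene. Sums over marker lists are in CPM before TMM scaling. Summed over 10 mural cell markers, monocytes had 5.16 and 6.90 CPM on the cortical surface and 321 and 661 CPM in bone-associated tissue. Lymphocytes had 49.9 and 32.7 CPM against 229 and 730 CPM. Summed over 12 fibroblast markers, monocytes had 7.73 and 10.4 CPM against 538 and 194 CPM, with Mgp the most abundant and 2 of the 12 at 0. Their part in the calls was not tested.

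Tnfsf9, a ligand that costimulates T cells, had no UMI in monocytes of cortical surface libraries 3 and 4 and was found in 4 and 13 bone-associated monocytes. No single cell held more than 24.6% of its UMIs over all 6 libraries, but 1 cell held 16 of the 21 UMIs in bone-associated library 1. Against these 2 libraries it was at least 13.5-fold higher in bone-associated monocytes (35.9 and 28.7 CPM). Cortical surface libraries 1 and 2 held 2 and 1 UMIs of Tnfsf9, and with all 6 libraries in the fit it missed the threshold. Igfbp7, a secreted binding protein of vessels, had 0 and 1 UMI against 22 and 262 UMIs, a ratio of 177 with a counting interval of 31.5 to 7007. Over all 6 libraries 38.8% of its UMIs lay in 1 cell, and 1 cell held 18 of the 22 UMIs in bone-associated library 1.

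Other genes with at least 50 UMIs and large differences toward the cortical surface were Hist1h1e (173 and 88.9 CPM against 3.42 and 19.6 CPM) and Hist1h4d (82.3 and 126 CPM against 23.9 and 24.5 CPM), both replication-dependent histones, Il16 (65.3 and 43.3 CPM against 13.7 and 10.5 CPM), a T cell attractant, Sla, an adaptor of receptor signalling (133 and 111 CPM against 20.5 and 37.9 CPM), and 9930111J21Rik2 (173 and 151 CPM against 20.5 and 47.7 CPM). Sla was also called against lymphocytes, with a difference of 2.47 ± 0.37 (adjusted p = 0.0485).

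S100a8 and S100a9, the calprotectin subunits that neutrophils hold in large amounts, were called higher on the cortical surface, with S100a8 at 18946 and 18668 CPM against 5176 and 4989 CPM and S100a9 at 15997 and 20678 CPM against 3496 and 5569 CPM. Nearly all of their UMIs lay in the few monocytes with at least 2 primary or secondary granule genes (2, 12, 5 and 6 cells). These cells held 99.97, 99.9, 98.7 and 99.8% of the UMIs of S100a8 in the 4 libraries, and without them the level was 5.56 and 23.6 CPM against 122 and 10.8 CPM, before TMM scaling. Left out of the fit, they turned the log2 fold change of S100a8 from 1.89 to -1.61 and that of S100a9 from 2.02 to -1.29, and neither was called (adjusted p = 0.384 and 0.333). G0s2, another neutrophil gene, changed sign as well, from -1.69 to 0.50. Thbs1 and Cd14 did not depend on these cells, with log2 fold changes of -4.94 and -4.38 without them, and 356 genes were then called.

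Markers of other cell types were summed over the monocytes as a check on their identity, in CPM without TMM scaling. Neutrophil markers came to 42070 and 54430 CPM in cortical surface libraries 3 and 4 and to 10949 and 14037 CPM in bone-associated libraries 1 and 2, with S100a8 the most abundant and 1 of 16 at 0, and 5 of the 8 tested were called (S100a8 and S100a9 higher on the cortical surface, Il1r2, G0s2 and Mxd1 higher in bone-associated monocytes). Border macrophage markers came to 72.2 and 82.8 CPM against 48.3 and 94.1 CPM, with Ms4a7 leading and 3 of 11 at 0. Dendritic cell markers came to 126 and 113 CPM against 134 and 238 CPM, led by Clec10a. None of the 3 tested in either list was called.

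Microglia markers reached 4163 and 3691 CPM against 3611 and 5757 CPM through Cst3, which monocytes also express, and B cell markers 155 and 245 CPM against 134 and 150 CPM, led by Ighm. T, NK and innate lymphoid cell markers came to 18 and 43.7 CPM against 329 and 57.7 CPM, led by Nkg7, and endothelial markers to 64.4 and 40.3 CPM against 79.8 and 265 CPM, led by Ly6a. Mast cell markers came to 0 and 1.15 CPM against 18.6 and 317 CPM, led by Tpsb2, of whose UMIs 99.3% lay in 1 cell of bone-associated library 2, and platelet genes to 5.16 and 43.7 CPM against 3.71 and 9.61 CPM, led by Pf4. Of the neural and choroid plexus markers, 1 of 2 tested was called, Ttr (transthyretin of the choroid plexus), at 2.84 and 10.0 CPM against 92.3 and 42.8 CPM.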

How the data were processed

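Single-cell RNA was measured in 6 libraries. The authors deposited UMI counts per gene and cell barcode, not normalised, as 1 filtered matrix per library with 31053 genes. The processing notes name Cell Ranger 3 and the matrix headers version 6.1.2. Total UMIs per library were 8408685, 16998497, 55385796 and 56169736 for cortical surface libraries 1 to 4 and 12041325 and 27511208 for bone-associated libraries 1 and 2.

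Monocytes were selected by the rule given above, with no doublet caller and no correction for free RNA. The members and gene lists were chosen with earlier results of these data known. UMIs were summed per library, and libraries with at least 10 monocytes were compared with edgeR 4.0.16 (R 4.3.3, TMM, quasi-likelihood F test, Benjamini-Hochberg adjustment) for genes found in over 10% of cells of either group. Each adjusted p in the text comes from this test, and the comparisons with other cell types added the library as a block. The comparison with lymphocytes was added after the cell counts were seen. The test was checked on simulated data.

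Named were the rule genes, the 12 called genes with the largest change in each direction (at least 50 UMIs in the higher group, no overlap), in each list up to 5 called and the 2 most abundant genes, and up to 4 genes in each direction of each interaction. A gene that these rules name is not reported here. The gene lists held 478 entries in 29 lists, and 3 symbols carried by more than 1 identifier (Mx2, Aldoa, Clec7a) were left out. Positions follow GENCODE M21 and promoters RefSeq. Intervals and floors cover counting error only. Alternatives covered scaling, filters, DESeq2 1.42.0, the member rule, thinning to 1500 UMIs and leaving out each library. Shares were compared with Python 3.11.15 and scipy 1.17.1.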

Additional observations from a re-analysis of the deposited data

Results flagged for a closer look

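Each result here was picked out because the difference between the preparations in monocytes differed, by the interaction test of edgeR with the library as a block, from that in another cell type of the same libraries. Values are differences of log2 fold changes, cortical surface minus bone-associated, monocytes minus the other type, and their causes were not tested. Levels in CPM in these results are before TMM scaling.

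Against border macrophages, where bone-associated library 2 was the only library of its tissue and was assumed to vary like the others, the globins differed by 7.31 (Hbb-bs), 6.69 (Hba-a1), 6.78 (Hba-a2) and 7.16 (Hbb-bt). The same comparison gave -2.78 for Cd14, -6.26 for Igfbp7, -4.34 for Ttr and -2.79 for the tetraspanin Cd9. For Cd14 the difference was -0.58 against Cd209a dendritic cells and -0.62 against neutrophils, and neither was called. Cd9 stood at 129 and 125 CPM against 241 CPM in monocytes and at 178 and 140 CPM against 45.8 CPM in border macrophages.

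Against neutrophils the globins differed by 8.09 (Hbb-bt), 8.39 (Hba-a2), 8.26 (Hba-a1) and 8.14 (Hbb-bs). The neutrophils themselves held 71159 and 1759 CPM of Hbb-bs in cortical surface libraries 3 and 4, against 26600 and 274 CPM in bone-associated libraries 1 and 2, so that the level differed widely between libraries of the same preparation. Without bone-associated library 1 the value for Hbb-bs, monocytes minus neutrophils, was 4.06, and without bone-associated library 2 it was 13.1, both past the threshold. Acta2 differed by -4.55, Ptgs2 by -4.63 and Sgms1, a sphingomyelin synthase, by -2.82. Of 7 alternatives, Acta2 kept its call in 7, Ptgs2 in 5 and Sgms1 in 4.

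Against Cd209a dendritic cells the differences were 6.48 for Hba-a1, 6.72 for Hbb-bt, 4.81 for the proliferation gene Mki67 and 4.25 for Tnfaip2. In the opposite direction they were -2.49 for Hpgd, a prostaglandin-degrading enzyme, -2.52 for Mt1, a metallothionein, -2.88 for Ier3 and -3.04 for Egr1. Mki67 in the dendritic cells stood at 3.47 and 6.53 CPM against 112 and 74.9 CPM.

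Against lymphocytes the differences were 3.33 for Fos, 3.32 for the tumor necrosis factor receptor Tnfrsf1b, 2.63 for Jun and 3.81 for Klf4. In the opposite direction they were -4.97 for Sdc4, -3.49 for Gda, -2.98 for Fam46c and -5.75 for Ifitm1. These 4 lay just inside the threshold (edgeR, adjusted p = 0.0485, 0.0485, 0.0494 and 0.0494), and each lost its call in 2 of 7 alternatives. With the filterByExpr filter 7 genes were called against lymphocytes, all in the positive direction. Ifitm1 in monocytes stood at 2.58 and 3.45 CPM against 63.1 and 37.1 CPM.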

How the results depend on the processing

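The number of called monocyte genes (187) became 551 with no gene filter, 303 with at least 4 selecting genes required, 353 without high-UMI cells and 67 after thinning to 1500 UMIs. In alternatives chosen after seeing the data it became 120 with all 6 libraries, 356 without cells with granule genes, 89 without cells with the non-classical set and 118 in cells with Xist and no Y-linked UMI. Leaving out 1 library at a time gave 0 to 175 (0 without bone-associated library 2), and it gave 14 to 54 for the comparison with neutrophils, 9 to 168 for dendritic cells and 7 to 302 for lymphocytes. With filterByExpr these last 2 were 29 and 7. The count over all lists (48) was 24 after thinning and 0 to 57 with a library left out, and the difference in share was 0.898 to 2.36 percentage points with a library left out. Over the other alternatives it ran from 0.347 (cortical surface libraries 3 and 4 only) to 4.08 among kept barcodes (at most 5% mitochondrial UMIs), and was 3.76 and 19.3 relative to barcodes with Ptprc and Lyz2.

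The 4 libraries of the main test share no replicate number. With the replicate block over all 6 libraries, added after seeing the data, 119 genes were called. Under it the log2 fold change changed sign for Hbb-bs (-1.78), Hba-a1 (-6.33), Hbb-bt (-5.26), Hba-a2 (-6.36), Hist1h4d (-0.095), S100a9 (-14.50), S100a8 (-9.98), S100a6 (-2.05), Hmgb2 (-1.85), Fosb (0.47), Ifi27l2a (-2.11), Cd177 (-8.14) and Fpr2 (-5.05). Deviations from the group means correlated between libraries of the same number at r = 0.0618 for number 1 and 0.0787 for number 2. With 2 bone-associated libraries the deviations of 1 mirror those of the other, so this check cannot decide whether the numbers mark pairs. Signs also changed without cells with granule genes for S100a9 (-1.29), S100a8 (-1.61) and G0s2 (0.50), with at least 4 selecting genes for S100a8 (-0.18), and after thinning for G0s2 (0.28). The causes were not tested, apart from the granule genes described above.

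Over 23 alternatives, the named called genes kept direction and call in 1018 values and direction alone in 274. The alternatives with cortical surface libraries 3 and 4 only and with at least 1000 genes held the same cells as the main fit. Their values, 58 for each, could not differ from it. Of 40 named genes that were not called, 26 changed sign under at least 1 alternative and 5 became called in the same direction. Not run, for lack of cells, libraries or residual degrees of freedom, were the gene tests on cortical surface libraries 1 and 2 alone and the border macrophage comparison without cortical surface library 3, without library 4 or without bone-associated library 2. Each tissue rests on 2 libraries in the gene tests, so each fit that left out 1 library had a single library for 1 tissue. Calls and counts from such fits assume that this library varies like the others. Genes found in few of 26 or 35 cells carry wide counting error.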
